A study of Drosophila melanogaster with 12 samples.

Results

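The experiment described here took heads of Drosophila melanogaster males 3 days after they were withdrawn from pentylenetetrazol (PTZ), and compared them with heads of untreated males of the same day. It is the day 10 set of a time course, and holds 4 of the 12 arrays of the series. The members are the 4 deposited columns of that day, and a gene entered with a value on at least 3 of them, which left 4661 genes. Withdrawn flies were unmated Oregon-R wild-type males that ate food with 8 mg/ml PTZ for 7 days and then normal food for 3 days. Untreated flies were males of the same stock, moved between vials of normal food on the same days. Vials held 30 flies at the start, and the labels give an age of 4 to 5 days. Replicates 1, 2, 3 and 4 are biological replicates by the labels, each an array of 2 colours that set a pool of withdrawn heads against a pool of untreated heads. The labelled treatment of replicate 1 names no dose, and its dose is taken from the series text.

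PTZ provokes seizures by blocking GABA-A receptors, the chloride channels through which GABA inhibits neurons. In the fly the brain fills much of the head capsule, but heads also hold the compound eyes, antennae, fat body, muscle and cuticle. The RNA was therefore a mixture of tissues, in which fewer cells of a type and less RNA per cell cannot be told apart. Neurons balance excitation and inhibition through transmitter synthesis, receptors, vesicle release and ion channels, and the brain draws its energy from trehalose and glucose in the blood, taken up through glia. Genes of these functions are given first below, followed by those of metabolism, protein turnover, defence and tissue markers.

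Every value is a log2 ratio of withdrawn over untreated heads with the median of its array set to 0, so it is a difference relative to the median spot of that array and not a level. The direction follows the channel labels, which put the withdrawn heads in the Cy5 channel on all 4 arrays. The series text says that dyes were swapped on 2 of 4 arrays and the labelling text of replicates 1, 2 and 3 names Cy3 for the withdrawn heads, so every sign below holds only if the channel labels hold. The array medians as deposited were -0.309 to -0.198, and without setting them to 0 the signs would lean down, with 2279 genes below 0 and 68 above 0 on every array. Arrays held 15057 to 18354 values over 27648 spots. Spots of 1 clone printed side by side differed with an SD of 0.270 to 0.414, and the interquartile range over genes was 0.3126, 0.3422, 0.4285 and 0.5151 in replicates 1, 2, 3 and 4, so replicates 3 and 4 were the wider arrays. Across genes, replicates 1 and 2 correlated at an r of 0.501 and replicates 3 and 4 at 0.554, against -0.0714 to 0.0293 between these pairs. The arrays thus fell into pairs, the test takes them as independent, and its standard errors may be too small.

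No gene passed an adjusted p of 0.05 in limma (0.0% of 4661, smallest adjusted p 0.05597), while 609 genes had an unadjusted p under 0.05. Of these, 350 lay above 0 (7.51% of tested genes) and 259 below 0 (5.56%). SAM in its 1-class form, which the series text names, called 27 genes, all of them above 0. Without replicate 1, and with a value on 2 of the other 3 arrays taken as enough, limma tested 5031 genes and called 107, of which 103 lay above 0. Over the 4661 genes tested with all arrays, it called 69 without replicate 1, of which 66 lay above 0. The 4 below 0 of the 107 were CG14889, Rab3, Rassf and Pur-alpha, the last named after its values were seen. Without replicate 4 the call was CG30111, and without replicate 2 or 3 none passed. Other models that hold all 4 arrays called up to 27 genes, and a dye term for replicates 2 and 3 called 1, CG30111. Adjusted p-values below are those of the limma model first given, in which no gene passed.

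Genes with 1 sign on every array were about as many above 0 as below 0. Above 0 on every array that measured them were 569 genes (12.2% of tested genes, median of their means 0.2709), and below 0 on every array were 609 genes (13.1%, median -0.2357). Among the 3317 genes measured on all 4 arrays the shares were 10.7% and 12.4%. The mean of replicates 1 and 2 and the mean of replicates 3 and 4 correlated at an r of -0.00423 across these 3317 genes, which are not independent replicates.

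**Figure D1:**
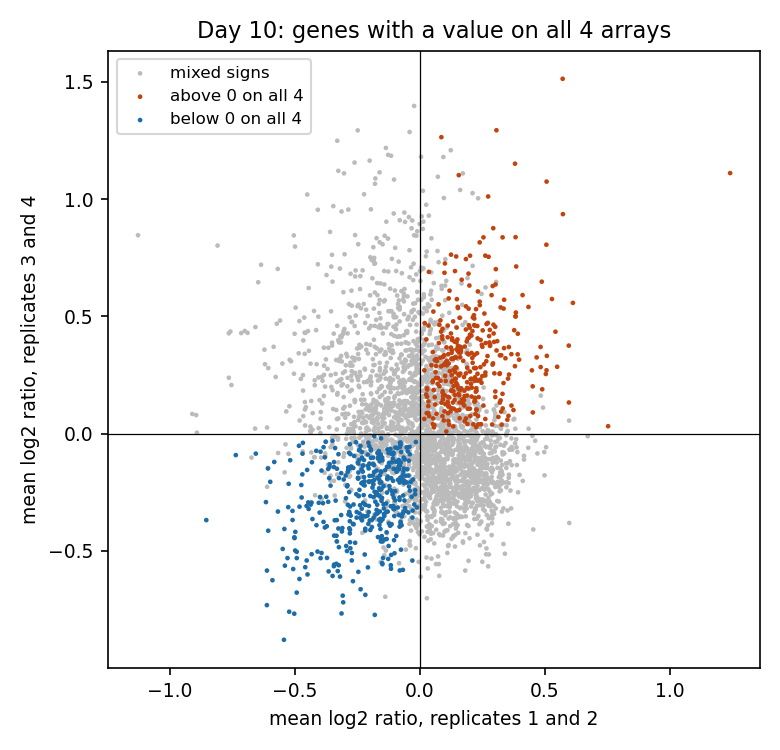
Each point is 1 of 3317 genes with a value on all 4 day 10 arrays; the x axis is its mean log2 ratio in replicates 1 and 2 and the y axis its mean in replicates 3 and 4, both withdrawn over untreated heads. The 354 genes above 0 on all 4 arrays and the 410 below 0 on all 4 are coloured, and the cloud as a whole has no slope (r = -0.00423).

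The large positive ratios lay mostly on the wider arrays and in genes that 1 array did not measure. Of 93 genes above 0 on every array with a mean over 0.5, 70 had 3 values, and 33 lacked replicate 2 and 32 lacked replicate 1. Their highest value was in replicate 4 for 45 and in replicate 3 for 40. Below 0 on every array with a mean under -0.5 were 31 genes, 12 of them with 3 values. Means over 1 were found for 15 genes, 13 of them measured on 3 arrays, and no gene had a mean under -1. Values of genes measured on 3 arrays also spread more, with a median SD of 0.2688 against 0.2079 for genes on all 4.

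Among genes with 4 values above 0, the highest mean belonged to PCNA2, another gene for the sliding clamp of DNA replication. PCNA2 stood at 0.20, 2.28, 1.28 and 0.94 in replicates 1, 2, 3 and 4, a mean of 1.18 ± 0.87 (SD, n = 4, adjusted p = 0.173). CG8142 stood at 0.24, 0.90, 1.43 and 1.59 on the same arrays, a mean of 1.04 ± 0.61 (SD, n = 4, adjusted p = 0.13). In both genes replicate 1 was the lowest array. PGRP-LB, an amidase that cuts bacterial peptidoglycan and so limits the Imd immune pathway, stood at 0.68, 0.34, 1.25 and 0.90, a mean of 0.79 ± 0.39 (SD, n = 4, adjusted p = 0.119). The sulfite oxidase gene shop stood at 0.38, 0.38, 0.71 and 1.59, a mean of 0.77 ± 0.57 (SD, n = 4, adjusted p = 0.207). Pgam5, a mitochondrial protein phosphatase gene, stood at 0.44, 0.33, 0.27 and 1.41, a mean of 0.61 ± 0.53 (SD, n = 4, adjusted p = 0.208). In shop and Pgam5 replicate 4 was above 1 and the other arrays were below 1. CG14546 stood at 0.48, 0.53, 0.82 and 0.80, a mean of 0.66 ± 0.17 (SD, n = 4, adjusted p = 0.0634). Fst, or Frost, a gene induced by cold, was even across arrays at 0.54, 0.69, 0.62 and 0.50, a mean of 0.58 ± 0.083 (SD, n = 4, adjusted p = 0.117) or 1.5-fold.

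The genes with the smallest p above 0 included several that 1 array did not measure. CG30111 stood at 1.59, 1.68 and 0.86 in replicates 2, 3 and 4, with no value in replicate 1, a mean of 1.38 ± 0.45 (SD, n = 3, adjusted p = 0.056). CG9682 stood at 1.34, 1.29 and 1.06 in replicates 2, 3 and 4, with no value in replicate 1, a mean of 1.23 ± 0.15 (SD, n = 3, adjusted p = 0.056). CG1647 stood at 0.83, 1.08 and 0.69 in replicates 2, 3 and 4, with no value in replicate 1, a mean of 0.87 ± 0.20 (SD, n = 3, adjusted p = 0.0634). All of these lacked replicate 1.

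Among the genes furthest below 0, several were more even across arrays. CG14889 stood at -0.63, -0.46, -0.97 and -0.79, a mean of -0.71 ± 0.22 (SD, n = 4, adjusted p = 0.0634). Rassf, a regulator of the Hippo growth pathway, stood at -0.53, -0.51, -0.91 and -0.61, a mean of -0.64 ± 0.18 (SD, n = 4, adjusted p = 0.0634) or 0.641 times the level in untreated heads relative to the array median. Bili, a negative regulator of JAK/STAT signalling, stood at -0.56, -0.42, -0.67 and -0.69, a mean of -0.59 ± 0.12 (SD, n = 4, adjusted p = 0.0878). Each of these had all 4 values under -0.4. CG8195 stood at -0.61, -0.61, -0.73 and -0.44, a mean of -0.60 ± 0.12 (SD, n = 4, adjusted p = 0.0878). Fbl6, an F-box protein gene, stood at -0.65, -0.53, -0.48 and -0.78, a mean of -0.61 ± 0.13 (SD, n = 4, adjusted p = 0.117). CG42404 stood at -0.47, -0.50, -0.59 and -0.65, a mean of -0.55 ± 0.085 (SD, n = 4, adjusted p = 0.119). Among the 10 lowest, MICAL-like, CG5262 and Rab3 spread most. MICAL-like stood at -0.46, -0.54, -0.22 and -1.32, and CG5262 stood at -0.62, -1.09, -0.19 and -0.55, with means of -0.64 and -0.61.

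**Figure D2:**
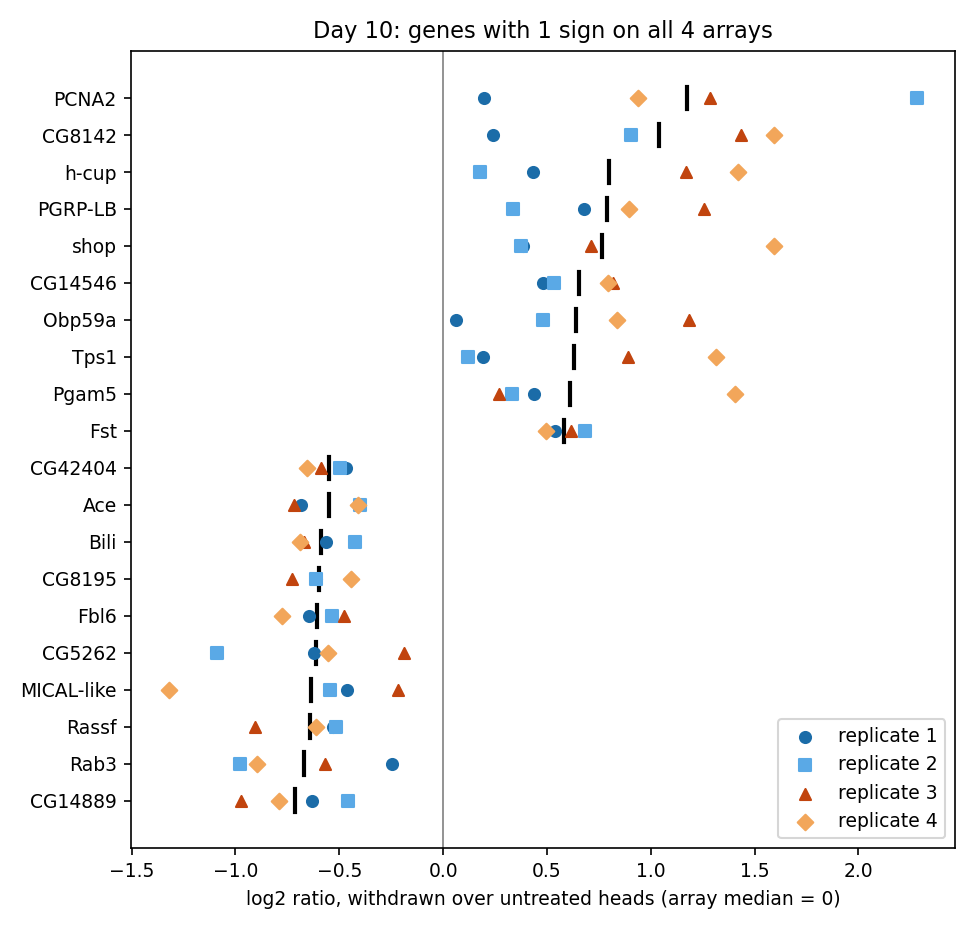
Log2 ratio of withdrawn over untreated heads on the 4 day 10 arrays (symbols) with the mean (black bar) for the 10 highest and 10 lowest means among genes with 4 values of 1 sign and an unadjusted p under 0.01. PCNA2 spans 0.20 to 2.28 and Fst 0.50 to 0.69, and the 10 lowest genes lie between -1.32 and -0.19.

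Genes of 46 functions and tissues were listed, and 880 listed genes were tested, of which 119 lay above 0 and 118 below 0 on every array. A list is read against 12.2% above and 13.1% below 0 on every array over all genes, and against a median of the means of 0.01287. Lists are described by these counts with no test of their own, and a count above or below 0 means on every array that measured the member. Of the listed genes 31 are in more than 1 list. Subtracting a running median over spot numbers, which takes out trends along the print order, left 506 genes above 0 (10.86%) and 598 below 0 (12.83%) on every array. It moved the count above or the count below by over 1.5 times in 35 of the 46 lists. For moved lists described below with a count of 5 or more under either setting, the counts under this setting are given beside the others.

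**Figure D3:**
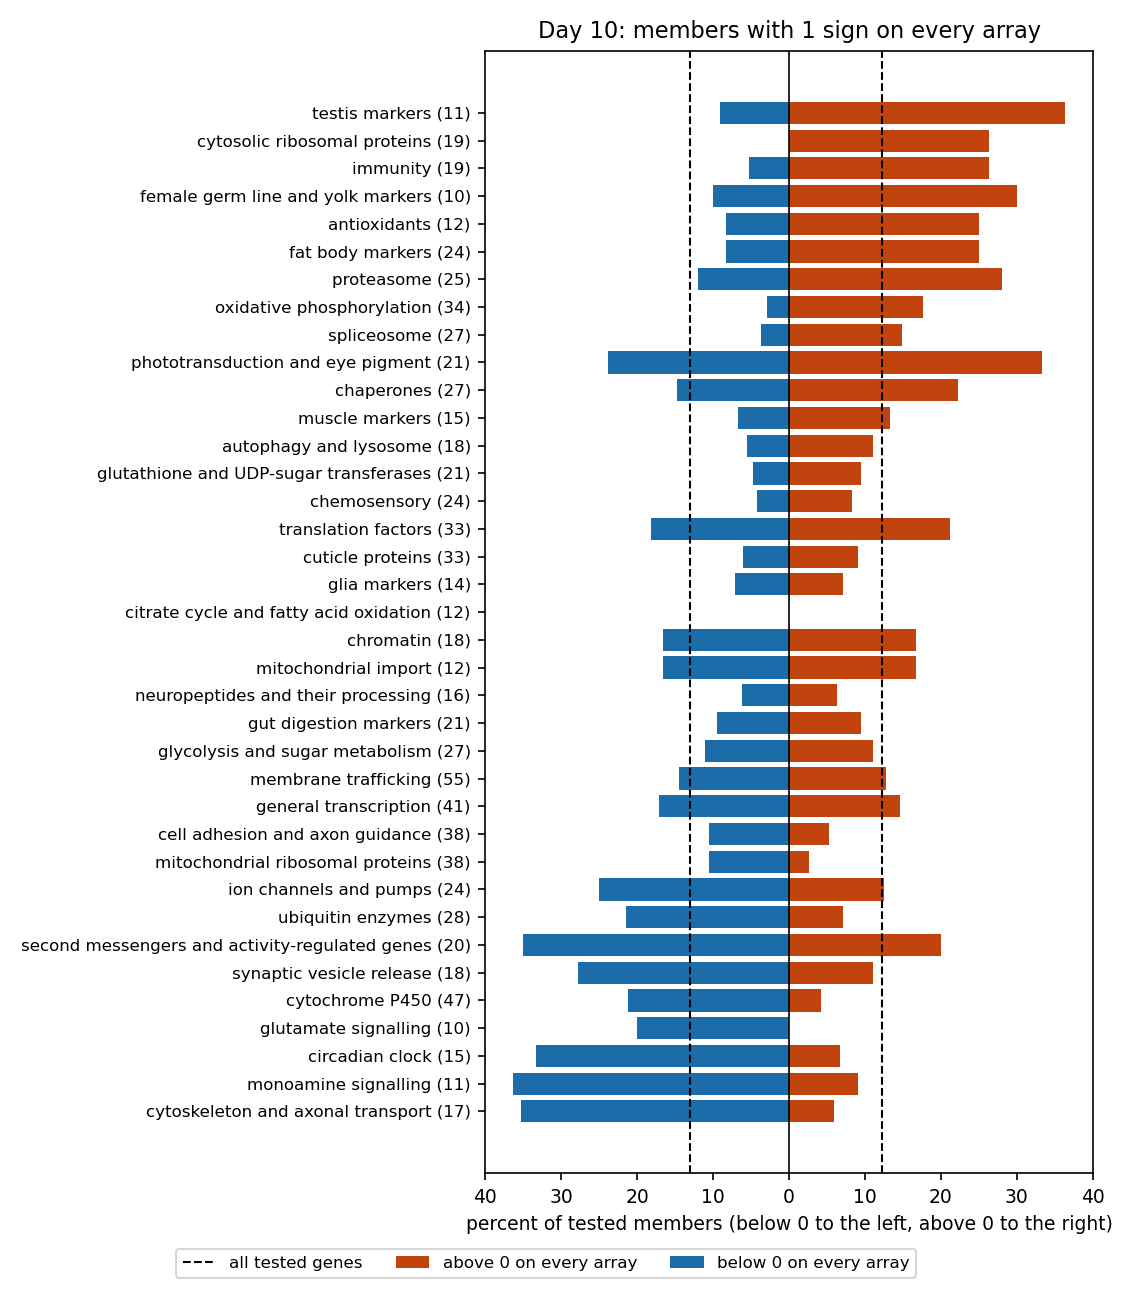
Share of tested members with 1 sign on every day 10 array, in percent, for lists with at least 10 tested members (number in parentheses); bars to the right count members above 0 and bars to the left members below 0. Dashed lines mark all tested genes, at 12.2% above and 13.1% below 0, and the lists run from 36.36% above 0 in testis markers at the top to 35.29% below 0 in the cytoskeleton list at the bottom.

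In GABA signalling, the system PTZ acts on, 12 genes were listed, 6 were on the array and 4 were tested. All 4 tested members had a mean below 0, and 1 of them was below 0 on every array. With the running median subtracted 1 was above and 2 were below 0 on every array, and the mean of Ssadh was above 0 at 0.04075. Over all tested genes 53.1% of means were above 0. Gad1, which makes GABA from glutamate, stood at -0.053, -0.091, -0.54 and -0.17, a mean of -0.21 ± 0.22 (SD, n = 4, adjusted p = 0.407). Gat, the transporter that clears GABA from the synapse, stood at -0.53, -0.70, 0.066 and -0.015, a mean of -0.29 ± 0.38 (SD, n = 4, adjusted p = 0.433). The GABA receptor subunit gene Lcch3 stood at -0.18, -0.21, -0.20 and 0.19, a mean of -0.10 ± 0.19 (SD, n = 4, adjusted p = 0.746). Gat was low in replicates 1 and 2 and near 0 in replicates 3 and 4, and Lcch3 was above 0 in replicate 4. Ssadh, which breaks down GABA after its transamination, stood at -0.12, -0.14, 0.23 and -0.015, a mean of -0.010 ± 0.17 (SD, n = 4, adjusted p = 0.98). The list median was -0.1517, -0.1728, -0.0695 and -0.0145 in replicates 1, 2, 3 and 4. Of 10 tested glutamate genes 2 were below 0 on every array and none above 0, with GluRIA, an ionotropic receptor subunit gene, at -0.057, -0.32, -0.32 and -0.12, a mean of -0.20 ± 0.13 (SD, n = 4, adjusted p = 0.445).

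Genes of the cholinergic synapse, the main excitatory synapse of the fly brain, were below 0 on every array in 2 of 5 tested members, and in 1 of 5 with the running median subtracted. Ace, the acetylcholinesterase that ends the signal, stood at -0.68, -0.40, -0.72 and -0.41, a mean of -0.55 ± 0.17 (SD, n = 4, adjusted p = 0.119) or 0.682 times the level in untreated heads relative to the array median. ChT, a choline transporter gene of transmitter synthesis, stood at -0.27, -0.53, -0.36 and -0.70, a mean of -0.46 ± 0.19 (SD, n = 4, adjusted p = 0.173). The receptor subunit gene nAChRbeta1 stood at 0.070, -0.13, -0.036 and -0.071, a mean of -0.042 ± 0.084 (SD, n = 4, adjusted p = 0.908). nAChRbeta3 stood at -0.48, 1.31 and 1.39 in replicates 1, 3 and 4, with no value in replicate 2, a mean of 0.74 ± 1.06 (SD, n = 3). nAChRbeta2 stood at -0.10, 0.20 and 0.74 in replicates 1, 3 and 4, with no value in replicate 2, a mean of 0.28 ± 0.43 (SD, n = 3). The receptor subunits had mixed signs, with replicates 3 and 4 above replicate 1 in nAChRbeta2 and nAChRbeta3.

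Monoamine genes were below 0 on every array in 4 of 11 tested members and above 0 in 1, with a list median of -0.086. DAT, the dopamine transporter, stood at -0.38, -0.29, -0.20 and -0.72, a mean of -0.40 ± 0.22 (SD, n = 4, adjusted p = 0.23). Octbeta2R, an octopamine receptor gene, stood at -0.14, -0.15, -0.48 and -0.58, a mean of -0.34 ± 0.23 (SD, n = 4, adjusted p = 0.252). Pu, or Punch, the GTP cyclohydrolase that makes a cofactor of dopamine and serotonin synthesis, stood at -0.12, -0.32, -0.31 and -0.13, a mean of -0.22 ± 0.11 (SD, n = 4, adjusted p = 0.413). All 3 genes were below 0 on each array, and DAT and Octbeta2R were lowest in replicate 4.

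In synaptic vesicle release 5 of 18 members were below 0 on every array and 2 above, and the list median was 0.000375. There were 3 each way with the running median subtracted. Rab3, the small GTPase of synaptic vesicles, stood at -0.25, -0.98, -0.57 and -0.90, a mean of -0.67 ± 0.33 (SD, n = 4, adjusted p = 0.146). The dynamin gene shi, which frees vesicles from the membrane during recycling, stood at -0.43, -0.24, -0.051 and -0.52, a mean of -0.31 ± 0.21 (SD, n = 4, adjusted p = 0.252). Synj, or synaptojanin, which works in the same recycling, had a mean of -0.18 ± 0.10 (SD, n = 4), and was named after its values were seen. All 3 genes were below 0 on each array. Nlg1, a neuroligin gene of synapse adhesion, was above 0 with a mean of 0.31 ± 0.25 (SD, n = 4, adjusted p = 0.329). Among 16 neuropeptide genes 1 was above and 1 below 0 on every array. AkhR, the receptor of adipokinetic hormone, was below 0 at -0.26, -0.30, -0.30 and -0.32, a mean of -0.30 ± 0.028 (SD, n = 4, adjusted p = 0.258). Nep2, a neprilysin peptidase gene, was above 0 with a mean of 0.22 ± 0.22 (SD, n = 4, adjusted p = 0.435).

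Ion channel and pump genes had 6 of 24 members below 0 and 3 above 0 on every array, with a median of 0.004771. There were 4 below and 1 above 0 with the running median subtracted. SKIP, whose product associates with the potassium channel Shal, stood at -0.55, -0.44, -0.43 and -0.56, a mean of -0.50 ± 0.070 (SD, n = 4, adjusted p = 0.0719). Sh, the Shaker potassium channel whose mutants shake under ether, stood at -0.069, -0.083, -0.40 and -0.59, a mean of -0.29 ± 0.25 (SD, n = 4, adjusted p = 0.471). Ih, the channel of the hyperpolarisation-activated current, stood at 0.26, 0.13, 0.036 and 0.35, a mean of 0.19 ± 0.14 (SD, n = 4, adjusted p = 0.433). SKIP was the most even of these, and Sh was lower in replicates 3 and 4 than in replicates 1 and 2.

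Second messenger and activity-regulated genes held 7 of 20 members below 0 and 4 above 0 on every array, with a median of -0.06275. Under the running median 7 were below and 2 above 0. The G protein subunit gene Galphai, which lowers cyclic AMP, stood at -0.39, -0.62, -0.39 and -0.34, a mean of -0.44 ± 0.13 (SD, n = 4, adjusted p = 0.173). Galphas, which raises cyclic AMP, stood at -0.32, -0.24, -0.44 and -0.42, a mean of -0.35 ± 0.090 (SD, n = 4, adjusted p = 0.229). Galphao, another G protein subunit of the nervous system, stood at 0.16, 0.40, 0.42 and 0.33, a mean of 0.33 ± 0.12 (SD, n = 4, adjusted p = 0.325). The protein kinase A genes Pka-R1, a regulatory subunit, and Pka-C2 had means of -0.30 ± 0.17 (SD, n = 4) and -0.39 ± 0.11 (SD, n = 3), below 0 on every array. kay, the fly Fos gene, a transcription factor of the AP-1 complex, stood at -0.40, -0.37, -0.44 and -0.15, a mean of -0.34 ± 0.13 (SD, n = 4, adjusted p = 0.197). Arc1, a gene of neuronal activity that forms capsid-like particles, had a mean of 0.36 ± 0.38 (SD, n = 4), above 0 on every array. Galphao, Pka-R1, Pka-C2 and Arc1 were named after their values were seen.

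Of 15 clock genes 5 were below 0 and 1 above 0 on every array, with a median of -0.05625. With the running median subtracted 3 were below and 1 above 0, with a median of -0.0005. slmb, an F-box gene needed to degrade the clock protein Period, stood at -0.49, -0.16, -0.55 and -0.41, a mean of -0.40 ± 0.17 (SD, n = 4, adjusted p = 0.164). Pdp1, an activator of the Clock gene, stood at -0.30, -0.0055, -0.32 and -0.78, a mean of -0.35 ± 0.32 (SD, n = 4, adjusted p = 0.249). Rh7, a rhodopsin of clock neurons and eyes, stood at -0.31, -0.25, -0.36 and -0.32, a mean of -0.31 ± 0.045 (SD, n = 4, adjusted p = 0.246). Rh7 was even across arrays, while Pdp1 spanned -0.78 to -0.0055. The clock list median was -0.126, -0.155, -0.0695 and -0.107 in replicates 1, 2, 3 and 4.

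Genes of phototransduction and eye pigment went both ways, with 7 of 21 members above 0 and 5 below 0 on every array. Pdh, a retinol dehydrogenase gene of the visual pigment cycle, stood at 0.12, 0.27, 0.22 and 0.60, a mean of 0.30 ± 0.21 (SD, n = 4, adjusted p = 0.249). The phototransduction channel gene trpl stood at 0.39, 0.11, 0.71 and 0.047, a mean of 0.31 ± 0.30 (SD, n = 4, adjusted p = 0.273). Arr1, an arrestin that ends the rhodopsin signal, had a mean of 0.23 ± 0.12 (SD, n = 4), and rdgA, the diacylglycerol kinase of photoreceptors, a mean of -0.28 ± 0.11 (SD, n = 4), both picked after seeing their values. The median of the list was 0.03325. Chemosensory genes had 2 of 24 members above and 1 below 0. The odorant-binding protein gene Obp59a stood at 0.062, 0.48, 1.19 and 0.84, a mean of 0.64 ± 0.48 (SD, n = 4, adjusted p = 0.167). Obp19d stood at 0.18, 0.11, 0.27 and 0.17, a mean of 0.18 ± 0.064 (SD, n = 4, adjusted p = 0.485). Obp59a ranged widely and Obp19d was even but small.

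Of 27 genes of glycolysis and sugar metabolism 3 were above and 3 below 0 on every array (11.11% each way), with a median of 0.07856, and 20 of 27 means were above 0. Under the running median 8 were above and 2 below 0. Glut1, a glucose transporter gene, stood at 1.13, 1.15 and 0.81 in replicates 1, 3 and 4, with no value in replicate 2, a mean of 1.03 ± 0.19 (SD, n = 3, adjusted p = 0.067). Tps1, the trehalose-6-phosphate synthase that makes the blood sugar trehalose, stood at 0.19, 0.12, 0.89 and 1.31, a mean of 0.63 ± 0.57 (SD, n = 4, adjusted p = 0.214). Treh, the trehalase that splits trehalose into glucose, stood at -0.29, -0.20, -0.62 and -0.56, a mean of -0.42 ± 0.20 (SD, n = 4, adjusted p = 0.219). Men-b, a malic enzyme gene, stood at -0.23, -0.46, -0.028 and -0.21, a mean of -0.23 ± 0.18 (SD, n = 4, adjusted p = 0.445). Glut1 was named for its small p, and Tps1, Treh and Men-b have the smallest p of the 5 list members with 4 values of 1 sign. Tps1 was over 0.8 in replicates 3 and 4 and under 0.2 in replicates 1 and 2. The list median was 0.3578 in replicate 4 and 0.0205, -0.067 and 0.139 in replicates 1, 2 and 3. Of 12 citrate cycle and fatty acid oxidation genes none had 1 sign on every array.

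Oxidative phosphorylation genes were above 0 on every array in 6 of 34 members and below 0 in 1, with a median of 0.0545. Under the running median 8 were above and 3 below 0. ATPsynE, a subunit gene of ATP synthase, stood at 0.22, 0.26, 0.51 and 0.58, a mean of 0.39 ± 0.18 (SD, n = 4, adjusted p = 0.156). COX4, of cytochrome c oxidase, stood at 0.44, 0.20, 0.23 and 0.85, a mean of 0.43 ± 0.30 (SD, n = 4, adjusted p = 0.234). ATPsynB, a stalk subunit of ATP synthase, stood at 0.22, 0.18, 0.30 and 0.23, a mean of 0.23 ± 0.048 (SD, n = 4, adjusted p = 0.388). The list median was above 0 on each array, at 0.124, 0.0365, 0.0525 and 0.1613. The vacuolar ATPase, the proton pump that loads synaptic vesicles and acidifies lysosomes, had 8 of 9 means above 0 and Vha26 below it. Vha26 stood at -0.26, -0.37, -0.60 and -0.24, a mean of -0.36 ± 0.16 (SD, n = 4, adjusted p = 0.234). With the running median subtracted 1 of the 9 members was above 0 on every array, and none, Vha26 included, was below 0 on every array. VhaAC45, an accessory subunit gene, stood at 0.30, 0.37, 0.035 and 0.40, a mean of 0.27 ± 0.16 (SD, n = 4, adjusted p = 0.29).

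Cytosolic ribosomal protein genes had 5 of 19 members above 0 on every array, none below 0, and a median of 0.1118. RpS28b stood at 0.40, 0.39, 0.25 and 0.38, a mean of 0.36 ± 0.072 (SD, n = 4, adjusted p = 0.222). RpL17 stood at 0.40, 0.30, 0.31 and 0.16, a mean of 0.29 ± 0.10 (SD, n = 4, adjusted p = 0.277). RpL3 stood at 0.15, 0.25, 0.25 and 0.17, a mean of 0.21 ± 0.052 (SD, n = 4, adjusted p = 0.403). These ratios were small and even, between 0.15 and 0.40. With the running median subtracted, the list had 3 members above and 1 below 0 on every array. Mitochondrial ribosomal protein genes were different in count, with 1 of 38 above and 4 below 0. mRpS33 stood at -0.49, -0.14, -0.78 and -0.76, a mean of -0.54 ± 0.30 (SD, n = 4, adjusted p = 0.146). mRpS7 stood at -0.36, -0.33, -0.25 and -0.88, a mean of -0.45 ± 0.29 (SD, n = 4, adjusted p = 0.229). Whether the ribosomal lists differ from one another was not tested.

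Translation factors lay on both sides, with 7 of 33 above and 6 below 0 on every array, and 7 above and 3 below 0 with the running median subtracted. Among those named, eIF4B and eIF4G1, which act at the mRNA cap, were below 0 and eIF3i above 0. eIF4B, which helps unwind the mRNA, stood at -0.58, -0.41, -0.44 and -0.57, a mean of -0.50 ± 0.088 (SD, n = 4, adjusted p = 0.119). eIF4G1, the scaffold of the cap complex, stood at -0.36, -0.15, -0.33 and -0.38, a mean of -0.31 ± 0.11 (SD, n = 4, adjusted p = 0.222). eIF3i, a subunit of the factor that holds the small ribosomal subunit, stood at 0.15, 0.30, 0.47 and 0.59, a mean of 0.38 ± 0.19 (SD, n = 4, adjusted p = 0.229). Of 9 tRNA synthetase genes 2 were above and 1 below 0.

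Proteasome genes were above 0 on every array in 7 of 25 members and below 0 in 3, with a median of 0.1401. Rpt2, an ATPase subunit of the proteasome cap, stood at 0.30, 0.26, 0.18 and 0.70, a mean of 0.36 ± 0.23 (SD, n = 4, adjusted p = 0.26). REG, an activator that is not needed for ubiquitin-tagged substrates, stood at -0.35, -0.21, -0.14 and -0.60, a mean of -0.33 ± 0.20 (SD, n = 4, adjusted p = 0.253). With the running median subtracted the counts were 2 above and 2 below 0. Without replicate 3, with 2 values taken as enough, they were 9 above and 8 below 0 of 28, beside 19.59% above and 20.1% below 0 of all genes. Ubiquitin genes were below 0 in 6 of 28 and above 0 in 2, and in 3 each way with the running median subtracted. Cul2, a scaffold gene of ubiquitin ligases, stood at -0.70, -0.51, -0.35 and -0.48, a mean of -0.51 ± 0.15 (SD, n = 4, adjusted p = 0.146). Ubi-p63E, the polyubiquitin gene, stood at -0.48, -0.27, -0.41 and -0.13, a mean of -0.32 ± 0.15 (SD, n = 4, adjusted p = 0.234). Cul3, another ligase scaffold gene, stood at 0.041, 0.11, 0.42 and 0.69, a mean of 0.31 ± 0.30 (SD, n = 4, adjusted p = 0.365), on the other side of 0. Chaperones had 6 of 27 members above and 4 below 0, among them CCT2, a chaperonin subunit gene, at 0.38 ± 0.23 (SD, n = 4) and the small heat shock protein gene l(2)efl at 0.28 ± 0.083 (SD, n = 4). Autophagy and lysosome genes had 2 of 18 above and 1 below 0, the last being Atg5 at -0.33 ± 0.16 (SD, n = 4).

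Genes of defence against chemicals were mostly not of 1 sign, as held over all tested genes (12.2% above and 13.1% below 0 on every array). Cytochrome P450 genes, many of which oxidise drugs and insecticides, had 10 of 47 tested members below 0 and 2 above 0 on every array, with a median of -0.05325. Cyp4e1 stood at -0.46, -0.74, -0.21 and -0.20, a mean of -0.40 ± 0.25 (SD, n = 4, adjusted p = 0.234). Cyp6a20, a P450 gene linked to male aggression, stood at -0.49, -0.45, -0.071 and -0.10, a mean of -0.28 ± 0.22 (SD, n = 4, adjusted p = 0.383). Cyp6a13 stood at 0.044, 0.17, 0.037 and 0.58, a mean of 0.21 ± 0.26 (SD, n = 4, adjusted p = 0.468). Both low genes were lower in replicates 1 and 2 than in replicates 3 and 4. With the running median subtracted, 5 P450 members were below 0 on every array and none above. Glutathione and UDP-sugar transferase genes had 2 of 21 above and 1 below 0, and antioxidant genes 3 of 12 above and 1 below 0. Trxr2, a thioredoxin reductase gene, stood at 0.31, 0.16, 0.18 and 0.13, a mean of 0.20 ± 0.081 (SD, n = 4, adjusted p = 0.433).

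Immune genes had 5 of 19 members above 0 and 1 below 0 on every array, and 3 above and 2 below 0 with the running median subtracted. The antimicrobial peptide gene Drs had no single sign, at -0.42, -1.20, 0.53 and 1.07, a mean of -0.0036 ± 1.01 (SD, n = 4). PGRP-LB, given above, had the highest mean of the list. Tl, the Toll receptor, stood at -0.25, -0.42, -0.18 and -0.12, a mean of -0.24 ± 0.13 (SD, n = 4, adjusted p = 0.366). Myd88, the adaptor that binds the receptor inside the cell, stood at 0.065, 0.38, 0.28 and 0.28, a mean of 0.25 ± 0.13 (SD, n = 4, adjusted p = 0.448). The next members of the chain, tub and the kinase gene pll, had means of 0.057 ± 0.080 (SD, n = 4) and 0.12 ± 0.076 (SD, n = 4), and Dif, a transcription factor gene at the end of the chain, stood at 0.45, 0.022, -0.0050 and 0.20, a mean of 0.17 ± 0.21 (SD, n = 4). As deposited, tub, pll and Dif had means of -0.1914, -0.1251 and -0.0805, and tub also lay below 0, at -0.09469, with the running median subtracted. Drs, tub, pll and Dif were named after their values were seen. None of 7 serpin genes had 1 sign on every array.

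Cytoskeleton and axonal transport genes had 6 of 17 members below 0 on every array and 1 above, with a median of -0.07733. With the running median subtracted there were 4 below and 3 above 0, with a median of -0.1443. Ank, an ankyrin that links the spectrin skeleton to membranes, stood at -0.55, -0.46, -0.51 and -0.38, a mean of -0.47 ± 0.073 (SD, n = 4, adjusted p = 0.211). Ank2, the neuronal ankyrin of axons and motor terminals, stood at -0.41, -0.27, -0.34 and -0.40, a mean of -0.36 ± 0.066 (SD, n = 4, adjusted p = 0.197). The dynein subunit gene sw had a mean of -0.31 ± 0.10 (SD, n = 4) and the kinesin-2 gene Klp68D a mean of -0.40 ± 0.30 (SD, n = 4), both below 0 on every array and named after their values were seen. cpa, an actin capping protein gene, stood above 0 at 0.31, 0.75, 0.48 and 0.67, a mean of 0.55 ± 0.20 (SD, n = 4, adjusted p = 0.146). Cell adhesion and guidance genes had 25 of 38 means below 0, with 4 members below and 2 above 0 on every array, and 6 below and 4 above 0 with the running median subtracted. beat-Ic, of a family that guides axons, stood at -0.30, -0.56, -0.47 and -0.56, a mean of -0.47 ± 0.12 (SD, n = 4, adjusted p = 0.119). Membrane trafficking genes had 8 of 55 below and 7 above 0, near the shares of all genes.

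Genes of the nucleus lay on both sides of 0. General transcription genes had 6 of 41 above and 7 below 0, and 6 above and 3 below 0 with the running median subtracted. Chromatin genes had 3 of 18 each way, and spliceosome genes 4 of 27 above and 1 below 0. MED19, a Mediator subunit gene, stood at -0.61, -0.44, -0.22 and -0.40, a mean of -0.42 ± 0.16 (SD, n = 4, adjusted p = 0.173). TfIIEalpha, of the basal RNA polymerase II machinery, stood at 0.11, 0.18, 0.78 and 0.73, a mean of 0.45 ± 0.35 (SD, n = 4, adjusted p = 0.224). Sf3a1, a splicing factor gene, stood at -0.32, -0.24, -0.48 and -0.50, a mean of -0.38 ± 0.13 (SD, n = 4, adjusted p = 0.214). It was the only spliceosome member below 0 on every array, and the 4 above 0 are not named here.

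Markers of the fat body and of yolk stood high in replicate 4. Fat body markers had 20 of 24 means above 0, 6 members above and 2 below 0 on every array (6 and 1 with the running median subtracted), and medians of 0.013, -0.06475, 0.168 and 0.47 in replicates 1, 2, 3 and 4. Female germ line and yolk markers had 8 of 10 means above 0, 3 above and 1 below 0 on every array, and medians of 0.149, 0.162, 0.2415 and 0.5865. Both lists were highest in replicate 4, but they are not separate, since Yp1, Yp2 and Yp3 are among the listed names of both. The members below 0 on every array are not named here. Yp2, a yolk protein gene, stood at 0.39, 0.038, 0.24 and 0.77, a mean of 0.36 ± 0.31 (SD, n = 4, adjusted p = 0.31). Sardh, a sarcosine dehydrogenase gene of the fat body, stood at 0.049, 0.18, 0.52 and 0.63, a mean of 0.35 ± 0.28 (SD, n = 4, adjusted p = 0.304). dhd, a thioredoxin gene of the egg, stood at 0.28, 0.31, 0.35 and 0.90, a mean of 0.46 ± 0.30 (SD, n = 4, adjusted p = 0.229). Without replicate 4 the fat body list median was 0.0238 and the female germ line and yolk median 0.166. Replicate 4 was the widest array, and 45 of the 93 genes above 0 on every array with a mean over 0.5 were highest there. Tps1, shop, h-cup and CG8142 were among these 45. Any part of the fat body in these ratios was not tested.

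Testis markers had 4 of 11 members above and 1 below 0 on every array, and medians of 0.1615, -0.0365, 0.332 and 0.1255. Of 6 measured on all 4 arrays none was above and 1 was below 0, and the 4 above 0 were measured on 3 arrays. The 1 below 0, achi, a homeobox gene needed in sperm formation, stood at -0.019, -0.036, -0.16 and -0.23, a mean of -0.11 ± 0.10 (SD, n = 4, adjusted p = 0.739). h-cup, a gene transcribed late in sperm formation that is not in the list, stood at 0.43, 0.18, 1.17 and 1.42, a mean of 0.80 ± 0.59 (SD, n = 4, adjusted p = 0.199). soti, another such gene and in the list, stood at 0.12, 1.90 and 1.03 in replicates 1, 3 and 4, with no value in replicate 2, a mean of 1.02 ± 0.89 (SD, n = 3). S-Lap8, a sperm aminopeptidase gene, stood at 0.30, 1.61 and 1.40 in replicates 2, 3 and 4, with no value in replicate 1, a mean of 1.10 ± 0.70 (SD, n = 3). Both soti and S-Lap8 are among the 4 above 0 and were named after their values were seen. Muscle markers had 2 of 15 above and 1 below 0, gut digestion markers 2 of 21 each way, glia markers 1 of 14 each way, and accessory gland and salivary gland markers none. Among 6 neuron markers Ace was the only member below 0 on every array and none was above. Means of the 6 were above 0 in 3 and below 0 in 3, with a list median of -0.03131. Those above 0 included nSyb at 0.17 ± 0.16 (SD, n = 4) and Sap47 at 0.048 ± 0.13 (SD, n = 4). The tissue is taken from the labels. Levels of these markers are not held in the values used here, which are ratios.

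**Figure D4:**
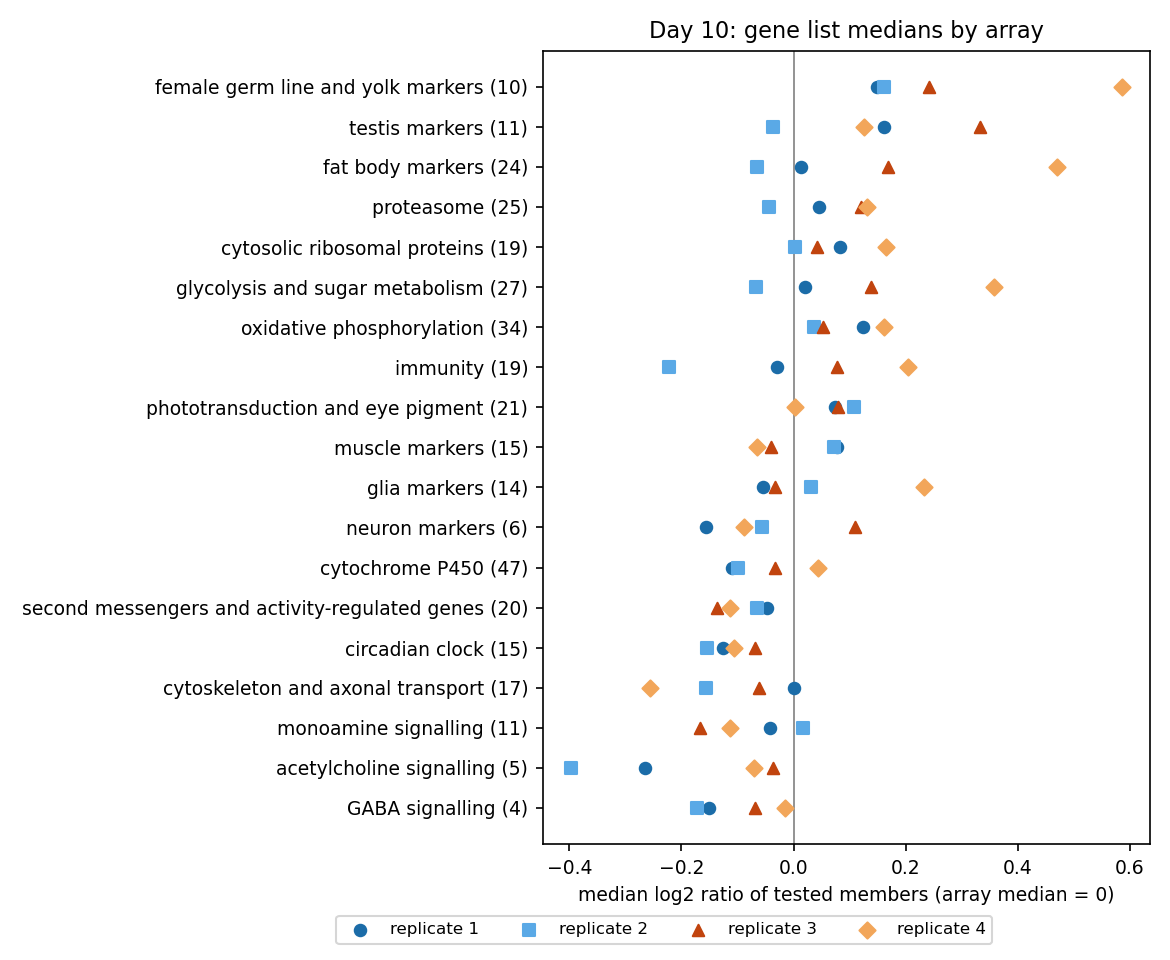
Median log2 ratio of the tested members of 19 lists on each of the 4 day 10 arrays, withdrawn over untreated heads, with the number of tested members in parentheses. Replicate 4 stands apart in the female germ line and yolk markers (0.5865) and fat body markers (0.47), while the 4 arrays of the clock list lie between -0.155 and -0.0695.

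Day 14, after 7 days of withdrawal, had its own 4 arrays and its own untreated heads, and 2385 genes could be compared. None differed between day 10 and day 14 in limma (0.0%, smallest adjusted p 0.4345), and 173 had an unadjusted p under 0.05 (7.25%). The arrays of the days did not overlap in 97 genes with day 10 higher (4.07%) and in 119 with day 10 lower (4.99%). Of 290 genes above 0 on every day 10 array, 54 (18.62%) were also above 0 on every day 14 array and 21 (7.241%) were below 0 on every day 14 array. Of 336 genes below 0 on every day 10 array, 48 (14.29%) were also below 0 and 30 (8.929%) above 0 on every day 14 array. Over all 2385 genes, 13.38% were above and 12.62% below 0 on every day 14 array.

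The smallest p with day 10 higher belonged to wus, which encodes a DnaJ-family membrane protein of the airways. It stood at 1.78, 1.13 and 0.86 in replicates 2, 3 and 4, with no value in replicate 1 at day 10, against -0.12, -0.57, 0.12 and -0.94 at day 14, a difference of 1.63 (SE 0.29, adjusted p = 0.434). CG30111 differed by 1.24 (SE 0.24, adjusted p = 0.488), with day 14 values of 0.13, -0.0085 and 0.30. CG5107 stood at 0.74, 1.03 and 0.87 in replicates 1, 3 and 4, with no value in replicate 2 at day 10, against -0.52, -0.68 and 0.19 on the 3 day 14 arrays that measured it, a difference of 1.21 (SE 0.24, adjusted p = 0.488). In each gene all day 10 arrays were above all day 14 arrays. With day 10 lower, elg1, which helps unload the replication clamp, stood at -0.47, -0.39, -0.11 and -0.48, against 0.55, 0.22 and 0.29 on 3 day 14 arrays, a difference of -0.72 (SE 0.16, adjusted p = 0.615). Rassf was near 0 at day 14, at 0.029, -0.025 and 0.037, a difference of -0.65 (SE 0.15, adjusted p = 0.615). Ubi-p63E stood at 0.15, 0.42 and 0.43 on 3 day 14 arrays, a difference of -0.66 (SE 0.16, adjusted p = 0.615).

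Neuronal and metabolic genes described above were chosen by their day 10 values. Ace had day 14 values of 0.35, -0.12 and 0.088, and its difference was -0.66 (SE 0.17, adjusted p = 0.637). SKIP had day 14 values of -0.0024, 0.013, -0.14 and -0.11, a difference of -0.44 (SE 0.12, adjusted p = 0.637). Gad1 had day 14 values of 0.013, 0.24, 0.26 and 0.036, all above 0, a difference of -0.35 (SE 0.15, adjusted p = 0.637). Day 10 and day 14 arrays did not overlap in Ace, SKIP or Gad1. Ank2 averaged -0.36 at day 10 and 0.24 ± 0.17 (SD, n = 3) at day 14, a difference of -0.60 (SE 0.15, adjusted p = 0.637). Vha26 averaged -0.36 at day 10 and 0.25 ± 0.30 (SD, n = 4) at day 14, a difference of -0.62 (SE 0.17, adjusted p = 0.637). Treh averaged -0.42 at day 10 and 0.030 ± 0.30 (SD, n = 4) at day 14, and Tps1 averaged 0.63 at day 10 and -0.090 ± 0.12 (SD, n = 3) at day 14. Ih averaged 0.19 at day 10 and 0.39 ± 0.16 (SD, n = 3) at day 14, and Nep2 averaged 0.22 at day 10 and 0.36 ± 0.20 (SD, n = 3) at day 14, both further from 0 at day 14. None of these differences passed the test. Some other named genes kept their side of 0 on every array of both days. CG14889 averaged -0.71 at day 10 and -0.38 at day 14, Cul2 -0.51 and -0.40, ATPsynE 0.39 and 0.26, and Pdh 0.30 and 0.23. Over all genes, 54 above 0 on every day 10 array stayed above on every day 14 array and 21 lay below. Of those below 0, 48 stayed below and 30 lay above. Over members measured on both days, the clock list median was -0.1229 at day 10 and 0.01401 at day 14 (8 genes), and the second messenger median was -0.07375 at day 10 and 0.016 at day 14 (15 genes). The fat body median was 0.1818 at day 10 and -0.06542 at day 14 (14 genes), and the oxidative phosphorylation median was 0.05087 at day 10 and 0.1074 at day 14 (25 genes).

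**Figure D5:**
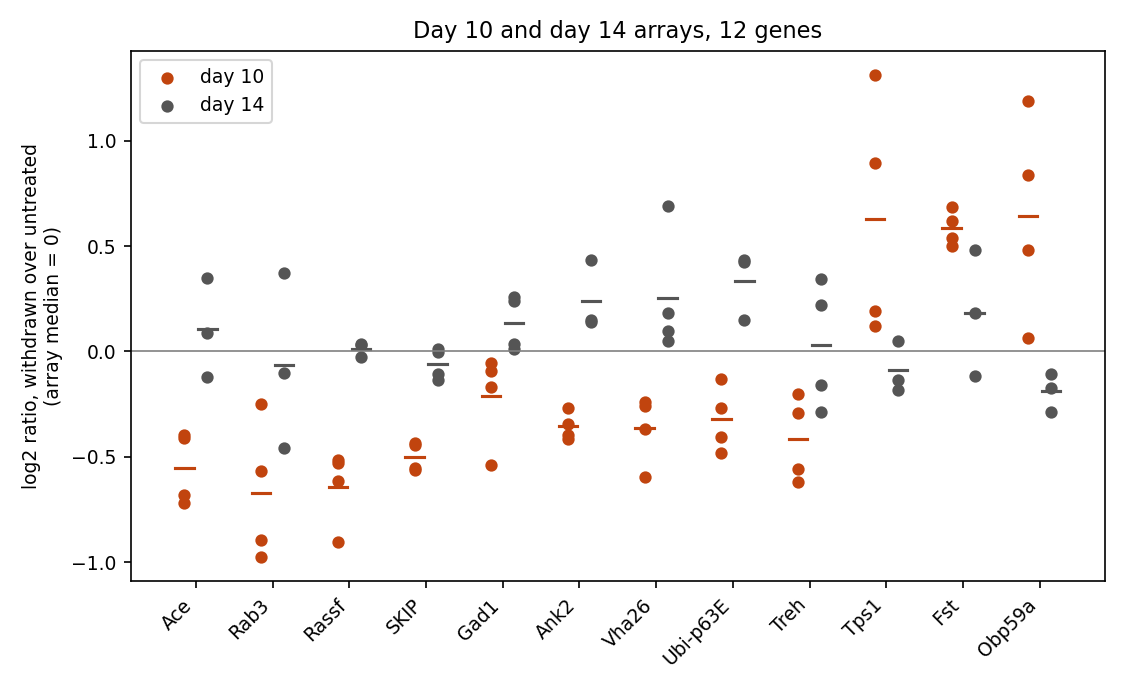
Log2 ratio of withdrawn over untreated heads on the day 10 arrays (orange) and day 14 arrays (grey) for 12 genes, with bars at the means. The values of Rassf span -0.91 to -0.51 at day 10 and -0.03 to 0.04 at day 14, and Rab3 shows the spread at day 14 that overlaps its day 10 values.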

How the data were processed

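The values are log2 ratios of withdrawn over untreated heads, 1 per spot and array, as deposited by the authors. GenePix Pro 6.0 read the images and Acuity 4.0 scaled the ratios, per the series text, and spots with 3% or more saturated pixels, an R2 between channels under 0.6 or a signal to noise under 3 were left out by the authors. Such filters leave weak spots missing rather than low. No source used here states the log base, which was taken as 2. Intensities were not analysed here.

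The platform table pairs 15116 of the 27648 spots with 1 gene. Those with several genes (102) were not used, and 12430 have no name here. For 14894 spots the symbol was updated through gene numbers in a RefSeq table. Each array's median over all its spots was set to 0 and the spots of a gene were averaged. A gene was tested with a value on at least 3 of 4 arrays, and 28.84% of tested genes had 3.

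A mean per day was fitted with limma 3.58.1 (R 4.3.3, lmFit and eBayes, prior degrees of freedom 5.15) to 5291 genes over 9 samples, the day 10 and day 14 arrays and day 8, whose 4 columns were identical where they overlap and entered as 1 sample. The day 10 mean was tested against 0 and day 10 minus day 14 in the same fit, and p was adjusted by Benjamini-Hochberg over all genes tested. On simulated data of this spread the test found 46.5% of genes changed by 0.5 and 99.5% of those changed by 1, with arrays taken as independent. The 4 arrays limit the precision of every mean.

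The day 10 set and the gene lists were chosen with earlier results of these data known. Of the listed names 23 matched no single gene of the RefSeq table. Many matched genes were not on the array, where for instance 6 of 12 GABA genes were found. Genes were named by a rule: the 10 highest and 10 lowest means with 4 values of 1 sign and an unadjusted p under 0.01, the 5 smallest p each way, up to 3 members of each list with 4 values of 1 sign, lists of 3 to 6 members in full, the GABA genes, and the 3 smallest p each way between days 10 and 14. Alternatives were single arrays left out, other centring, other averaging and filters of spots, other sign and dye settings, a replicate block and SAM. Leaving out single arrays over the genes tested with all arrays was chosen after seeing the data.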

Additional observations from a re-analysis of the deposited data

Results flagged for a closer look

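Of 102 named genes with 4 day 10 values and 43 lists checked, 5 genes and no list had 1 array far from the other 3. Chance gives about 1 in 20 groups, which is more than were found. Pgam5 stood at 1.405 in replicate 4, and dhd, the egg thioredoxin gene, at 0.904. mRpS7, a mitochondrial ribosomal protein gene, stood lowest in replicate 4 at -0.8825. The GABA receptor subunit gene Lcch3 stood at 0.189 in replicate 4, and the other 3 arrays were below 0. The remaining gene, RpS28b, was lowest in replicate 3 at 0.2485 and stayed above 0 on every array.

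In 7 genes named in the text every day 10 array lay on one side of 0 and every day 14 array on the other. The limma test of the difference passed in none. Of all genes compared, 21 of 290 above 0 on every day 10 array were so placed (7.241%), while 54 stayed above 0. Of those below 0 on every day 10 array, 30 of 336 were (8.929%), while 48 stayed below 0 on every day 14 array. Ubi-p63E and elg1 are among the genes named by their difference between the days. Gad1, which makes GABA, averaged -0.2131 at day 10 and 0.1358 at day 14. The neuronal ankyrin gene Ank2 averaged -0.3553 at day 10 and 0.24 at day 14. Vha26 of the vacuolar proton pump averaged -0.3648 at day 10 and 0.2544 at day 14. With the running median over spot numbers subtracted, Vha26 was no longer below 0 on every day 10 array. Both the polyubiquitin gene Ubi-p63E and elg1 were on the same sides, at -0.3219 and -0.3638 at day 10 and at 0.335 and 0.3525 at day 14. On the other sides were Obp59a, at 0.6421 at day 10 and -0.1898 at day 14, and Pgam5, at 0.6101 at day 10 and -0.1512 at day 14.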

How the results depend on the processing

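Calls of the day 10 mean against 0 numbered 0 to 107 when single arrays were left out, and 0 to 69 over the genes tested with all arrays, an alternative chosen after seeing the data. With the threshold on the adjusted p at 0.1 there were 11 calls, and SAM called 27, all above 0. A dye term that set replicates 3 and 4 against the other arrays called 27, of which 19 lay above 0 and 8 below. With replicates 2 and 3 set against the others 1 gene passed, CG30111. No gene passed with any of the 4 sign settings tried, and of 113 named genes 83 changed the sign of their mean with replicates 3 and 4 turned, 69 with 2 and 4, 53 with 2 and 3 and 99 with 1, 2 and 3 turned. Deviations of same-numbered day 10 and day 14 arrays correlated at an r of -0.102, 0.304, 0.153 and 0.119, so 3 of 4 pairs were over 0.1, and 2 of 4 day 10 arrays correlated best with their own number. No label ties the numbers to a shared batch, and the arrays were not taken as paired. The replicate block gave 16 calls at day 10 and 2 between days, CG30111 and wus, and it moved both counts by over 1.5 times. Genes above 0 on every array numbered 881 to 1153 and genes below 0 numbered 884 to 991 with single arrays left out, where 2 or 3 values of 1 sign are enough, so that these counts cannot fall below those of all arrays. Requiring all 4 arrays left 354 above 0. As deposited, 68 genes were above and 2279 below 0 on every array, and 2340 genes differed between days, all of them lower at day 10, since the offsets of the columns are then part of the values.

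Of 113 named genes 16 had a mean on the other side of 0 under at least 1 setting, and the cause was not tested. As deposited these were ATPsynB (-0.01625), Arr1 (-0.02212), Cyp6a13 (-0.0395), Dif (-0.0805), Ih (-0.05575), Nep2 (-0.03112), Obp19d (-0.06794), RpL3 (-0.04075), Sap47 (-0.2003), Trxr2 (-0.05325), nSyb (-0.083), pll (-0.1251) and tub (-0.1914). A running median over spot numbers turned Nep2 (-0.05394), Sap47 (-0.013), Ssadh (0.04075), nAChRbeta2 (-0.113) and tub (-0.09469). Over the sets that leave out 1 array, the mean of Drs lay between -0.3632 and 0.3958, that of Ssadh between -0.08967 and 0.03167 and that of Sap47 between -0.01483 and 0.08317. All other named means kept their side of 0 in these settings. Spot brightness was not used here, which limits what can be said of dim spots.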

Other observations

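Clones that carry no gene name here gave 2 calls in the same model that called no named gene. Of 2863 such clones, 2 passed an adjusted p of 0.05 in limma (0.0699%), fitted and adjusted apart from the named genes, and 477 had an unadjusted p under 0.05. Above 0 on every array were 12.54% and below 0 on every array 15.19%. The clone with the smallest adjusted p stood at -0.737, -0.796, -0.790 and -0.634 in replicates 1, 2, 3 and 4, a mean of -0.74 ± 0.075 (SD, n = 4, adjusted p = 0.00945). At day 14 its values were 0.0235, -0.2465, 0.0005 and 0.008. The other clone stood at 1.117, 1.030 and 1.113 in replicates 2, 3 and 4, a mean of 1.09 ± 0.049 (SD, n = 3, adjusted p = 0.0416), and had no day 14 value. Its 3 values lay within 0.1 of one another. Both clones were chosen by their values and are given as measurements only.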
